A study of Mus musculus with 96 samples.

Results

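The genes described here are 10 mouse genes that slow the cell cycle or answer to p53, a transcription factor activated by DNA damage: Cdkn1a, Wee1, Mdm2, Ccng1, Gadd45a, Gadd45b, Gadd45g, Btg2, Sesn1 and Trp53inp1. They were taken by symbol from a table of 38924 genes, in which all 10 were present, and 9 of them were among the 11979 genes with enough reads to be tested. The genes were picked with results of these data in view, in particular their difference between the 2 crosses and their relation to clock genes. Those values are therefore given as descriptions with no p. The livers came from 48 male F1 hybrids of the inbred mouse strains PWK/PhJ, derived from wild mice, and NOD/ShiLtJ, prone to autoimmune diabetes. The mice were bred in both directions, PWKxNOD and NODxPWK, the first strain in each name being read as the mother. Each cross was fed a high (0.050 g/kg) or a normal (0.009 g/kg) amount of cholecalciferol (vitamin D3) and was killed at an older or a younger age, which makes 8 groups of 6 mice. The 8 groups are PWKxNOD and NODxPWK, each as older mice on the high diet, older mice on the normal diet, younger mice on the high diet and younger mice on the normal diet. Ages are called older (labelled 24 or 25) and younger (labelled 8) because the labels give no unit and the protocol names 15 and 24 weeks. The label 25 was carried by 7 mice, 2 PWKxNOD and 5 NODxPWK, all of them older and on the normal diet. Leaving them out removes 5 of the 6 older NODxPWK mice on the normal diet. A call lost in such a fit can therefore rest on the fewer mice. Poly-A RNA was read in unstranded libraries, and the deposited value is an expected count for each gene and allele, an estimate of reads that need not be whole. Total expression was the sum of the PWK and NOD expected counts, given below as CPM, the counts scaled to a common library total.

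Cdkn1a encodes p21, an inhibitor of the cyclin-dependent kinases that drive the cell cycle, and Wee1 encodes a kinase that holds the mitotic kinase Cdk1 in its inactive form. Mdm2, the ubiquitin ligase that removes p53, and Ccng1, which encodes cyclin G1, are p53 targets that act back on p53. The 3 Gadd45 genes encode small stress sensors that activate the kinase upstream of p38 and JNK. Btg2 encodes an antiproliferative partner of the deadenylase complex, Sesn1 a sestrin that restrains mTORC1, and Trp53inp1 a p53-induced protein with roles in cell death and autophagy. In mouse liver, where few cells divide, several of these genes are also known to follow the circadian clock, Wee1 and Cdkn1a among them. Arntl encodes BMAL1, an activator of the clock, and Dbp encodes a transcription factor that BMAL1 and CLOCK switch on. In mouse liver the transcripts of Arntl and Dbp are known to peak at different times of the day.

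The sequences upstream of 5 of the genes are shown because their letters can be set beside how differently the genes behaved below: Cdkn1a and Gadd45a, which differed between the crosses in opposite directions, Mdm2 and Ccng1, which held nearly the same level in every group, and Gadd45g, which varied between mice of a group. Each is the 250 bases before a RefSeq start on GRCm38.p6, 5′ to 3′ on the gene's strand, with matches to the searched motifs in capitals.
Cdkn1a (chr17:29090729-29090978, plus strand): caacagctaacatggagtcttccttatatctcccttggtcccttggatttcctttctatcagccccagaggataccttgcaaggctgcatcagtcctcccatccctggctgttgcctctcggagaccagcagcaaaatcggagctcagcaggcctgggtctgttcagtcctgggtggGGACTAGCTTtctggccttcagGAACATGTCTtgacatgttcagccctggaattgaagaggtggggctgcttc
Mdm2 (chr10:117710759-117711008, minus strand): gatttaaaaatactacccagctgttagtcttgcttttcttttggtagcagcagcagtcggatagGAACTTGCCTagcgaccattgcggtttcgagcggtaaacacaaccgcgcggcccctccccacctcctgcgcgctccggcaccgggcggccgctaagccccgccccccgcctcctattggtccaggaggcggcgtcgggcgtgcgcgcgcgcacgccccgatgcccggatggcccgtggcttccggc
Ccng1 (chr11:40755287-40755536, minus strand): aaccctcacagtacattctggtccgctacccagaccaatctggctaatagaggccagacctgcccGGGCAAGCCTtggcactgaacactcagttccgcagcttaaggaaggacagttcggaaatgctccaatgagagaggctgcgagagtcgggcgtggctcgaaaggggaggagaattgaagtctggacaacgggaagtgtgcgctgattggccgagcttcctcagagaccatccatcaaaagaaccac
Gadd45a (chr6:67037408-67037657, minus strand): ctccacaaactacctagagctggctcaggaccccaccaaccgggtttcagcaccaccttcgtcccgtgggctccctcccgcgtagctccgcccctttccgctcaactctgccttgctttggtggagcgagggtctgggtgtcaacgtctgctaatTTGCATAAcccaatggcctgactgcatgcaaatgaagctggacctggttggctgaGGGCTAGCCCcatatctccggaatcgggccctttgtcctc
Gadd45g (chr13:51846425-51846674, plus strand): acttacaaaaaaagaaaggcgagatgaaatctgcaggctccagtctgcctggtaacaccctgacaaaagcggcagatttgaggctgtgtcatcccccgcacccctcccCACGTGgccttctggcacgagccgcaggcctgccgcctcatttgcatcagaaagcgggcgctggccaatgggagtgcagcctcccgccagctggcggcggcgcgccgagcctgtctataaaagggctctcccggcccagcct
In Cdkn1a the capitals are 2 matches to the p53 decamer, which begin 73 and 51 bases before the start. A full p53 site holds 2 decamers, and the search was for single decamers and not for full sites. The capitals in Mdm2 and in Ccng1 are 1 p53 decamer each. In Gadd45a the first run of capitals is a D-box (TTATGNAA, the site of Dbp and its relatives), 95 bases before the start, and the second is a p53 decamer at 40 bases. In Gadd45g the capitals are an E-box (CACGTG, the site of CLOCK and BMAL1). Both strands were searched for the p53 decamer, the D-box, the E-box and the ROR element (AGGTCA), and no 2 matches overlapped in the genes shown. Among 32851 RefSeq promoters of this length, 7.126% held a p53 decamer, 3.068% a D-box, 6.021% an E-box and 14.024% a ROR element. A match is a description of the letters and not a bound site. Gadd45b held 1 E-box, Btg2 held 1 ROR element, and Sesn1 held 1 p53 decamer before one of its 2 starts. The other RefSeq start of Cdkn1a held none of the 4 motifs.

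Per kilobase of exon, the most abundant of the genes were Ccng1 (7.17 ± 1.02 CPM per kb, SD, n = 48 mice), Trp53inp1 (6.36 ± 1.74 CPM per kb) and Gadd45g (5.90 ± 5.48 CPM per kb). Mdm2 followed with 3.85 ± 0.52 CPM per kb, Gadd45a with 3.08 ± 1.72 CPM per kb and Sesn1 with 2.83 ± 0.645 CPM per kb. Btg2 (1.33 ± 0.547 CPM per kb), Wee1 (1.20 ± 0.838 CPM per kb), Cdkn1a (0.868 ± 1.15 CPM per kb) and Gadd45b (0.211 ± 0.229 CPM per kb) were the lowest. Neighbours in this order differed by less than their spread between mice, except Sesn1 and Btg2, whose means lay farther apart than either SD. Gadd45b had 0 to 9 counts per mouse, 82 counts over all mice, and was not tested. Cdkn1a rested on 0 to 10 counts per mouse in PWKxNOD, against 2 to 85 counts in NODxPWK, so its level in PWKxNOD is set by few reads. Bulk RNA does not tell fewer cells of a type from less RNA per cell, and this holds for each difference below.

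Between the crosses, Cdkn1a was lower and Wee1 and Gadd45a were higher in PWKxNOD than in NODxPWK, while Mdm2, Ccng1 and Sesn1 lay at nearly the same level. Cdkn1a (chromosome 17, 29090976 to 29100727) had 0 to 1.81 CPM with a median of 0.626 CPM in the 24 PWKxNOD mice, against 0.454 to 16.8 CPM with a median of 3.82 CPM in the 24 NODxPWK mice. Of the NODxPWK mice, 17 of 24 lay above the highest PWKxNOD mouse. The log2 difference was -2.54 ± 0.36 (SE), and 34 of the 11979 genes tested, 0.284%, differed at least as much in size. The mouse at 0 counts was a younger PWKxNOD mouse on the high diet, for which 3 counts would be 1.31 CPM.

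By group, the lowest, median and highest Cdkn1a values in older mice on the high diet were 0.406, 0.483 and 1.1 CPM in PWKxNOD, against 0.454, 1.44 and 6.96 CPM in NODxPWK. In older mice on the normal diet they were 0.503, 1.05 and 1.81 CPM in PWKxNOD, against 5.75, 9.10 and 16.8 CPM in NODxPWK. Older mice on the normal diet were the only ones, at matched diet and age, whose Cdkn1a ranges did not overlap between the crosses. In younger mice on the high diet the values were 0, 0.355 and 1.23 CPM in PWKxNOD, against 0.763, 2.10 and 14.9 CPM in NODxPWK. In younger mice on the normal diet they were 0.617, 1.19 and 1.68 CPM in PWKxNOD, against 1.04, 3.73 and 5.93 CPM in NODxPWK. Every PWKxNOD group was low and narrow, on few reads, and the NODxPWK groups on both diets were spread more widely.

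**Figure D1:**
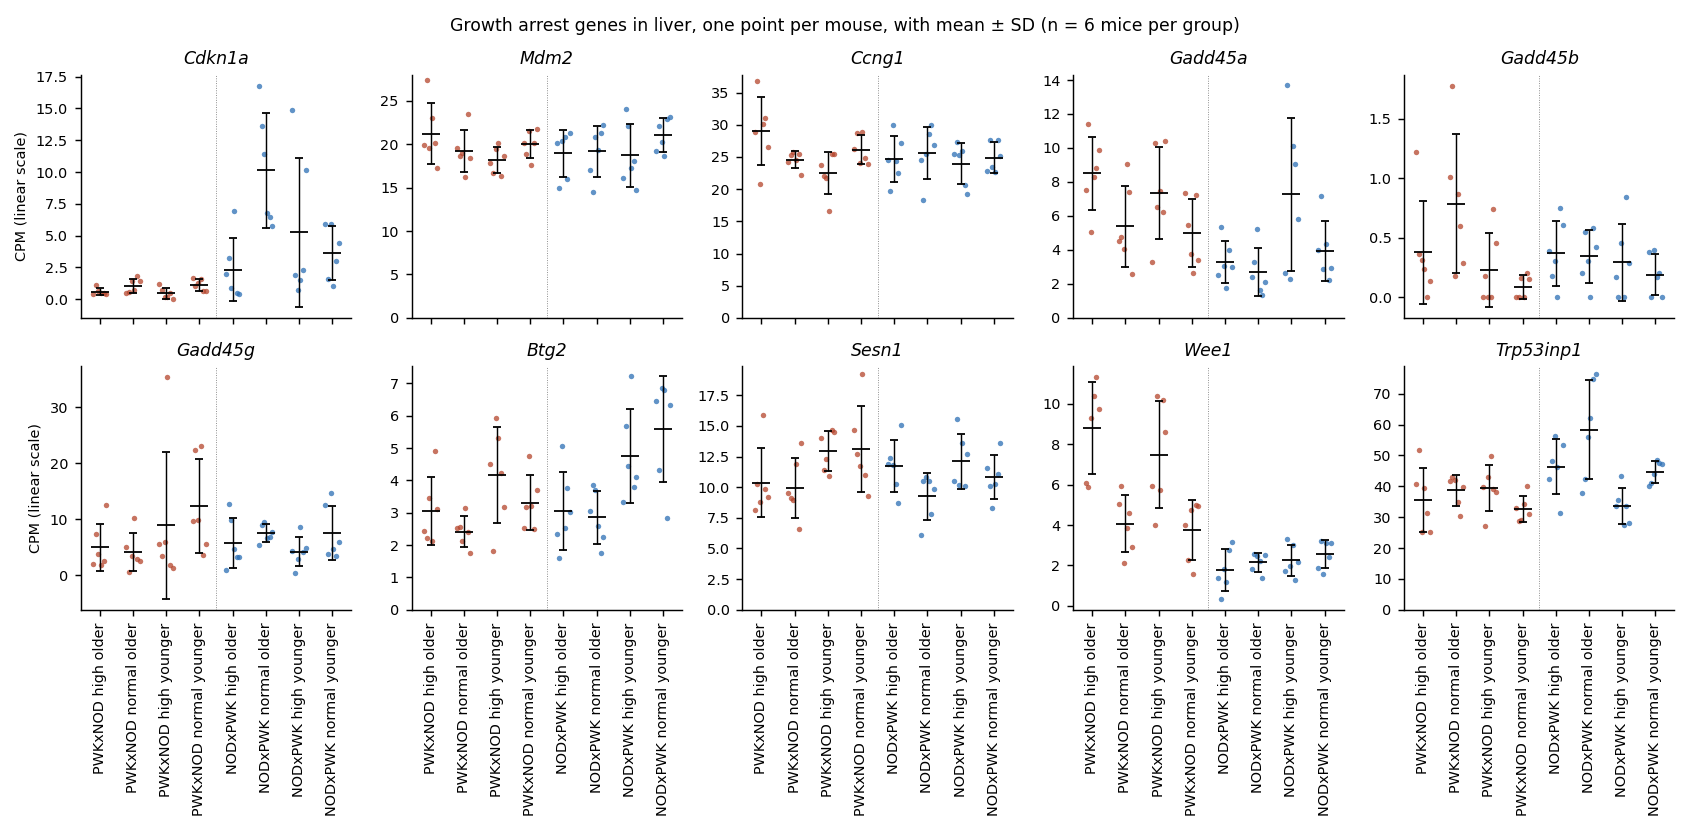
CPM of the 10 genes (vertical axes, linear) in each mouse, by group (horizontal axis, PWKxNOD in red left of NODxPWK in blue), with the group mean ± SD as a bar (n = 6 mice). Cdkn1a stays at or below 1.81 CPM in PWKxNOD, Wee1 reaches at most 3.31 CPM in NODxPWK, and Mdm2 and Ccng1 are level across the groups.

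Wee1 (chromosome 7, 110122046 to 110143286) was higher in PWKxNOD, with 1.60 to 11.3 CPM and a median of 5.39 CPM in PWKxNOD, against 0.358 to 3.31 CPM and a median of 2.20 CPM in NODxPWK. Of the PWKxNOD mice, 20 of 24 lay above the highest NODxPWK mouse, and the log2 difference was 1.38 ± 0.15. Wee1 rested on 2 to 21 counts per mouse in NODxPWK and 3 to 72 counts in PWKxNOD, so single values rest on few reads. In older mice on the high diet the lowest, median and highest Wee1 values were 5.89, 9.53 and 11.3 CPM in PWKxNOD, against 0.358, 1.61 and 3.18 CPM in NODxPWK. In older mice on the normal diet they were 2.11, 4.23 and 5.92 CPM in PWKxNOD, against 1.37, 2.33 and 2.57 CPM in NODxPWK. The ranges were apart between the crosses on the high diet and overlapped on the normal diet. In younger mice on the high diet Wee1 had 3.99, 7.29 and 10.4 CPM in PWKxNOD, against 1.26, 2.09 and 3.31 CPM in NODxPWK. In younger mice on the normal diet it had 1.60, 4.38 and 4.98 CPM in PWKxNOD, against 1.58, 2.76 and 3.23 CPM in NODxPWK.

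Gadd45a (chromosome 6, 67035096 to 67037457) had 2.61 to 11.4 CPM with a median of 6.90 CPM in PWKxNOD, against 1.37 to 13.7 CPM with a median of 3.05 CPM in NODxPWK, a log2 difference of 0.73 ± 0.18 (0.49 ± 0.25 without the mice labelled 25). The 2 ranges overlapped, and the highest mouse of all was a younger NODxPWK mouse on the high diet. Of the 68-base windows of the Gadd45a exons, 14.36% also lie in the antisense transcript E230016M11Rik, whose reads cannot be told apart in unstranded libraries. Cdkn1a shares 7.44% of its windows with other genes, while Mdm2 shares 0.7% and the other 7 genes share none. The clock gene Dbp, used below, shares 15.52% of its windows with Sphk2, a protein-coding gene on the opposite strand. Gadd45g averaged 7.58 ± 8.36 CPM in PWKxNOD and 6.25 ± 3.68 CPM in NODxPWK (SD, n = 24), and 1 younger PWKxNOD mouse on the high diet stood at 35.3 CPM. The Gadd45g log2 difference was 0.16 ± 0.31 over all mice and -0.28 ± 0.29 without replicate 4. It was 0.37 ± 0.37 without replicate 3 and -0.08 ± 0.34 without the 11 mice that held over 50 CPM of exocrine pancreas markers, described at the end, and the ranges of the crosses overlapped.

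Trp53inp1 (chromosome 4, 11156431 to 11174379) averaged 36.6 ± 7.21 CPM in PWKxNOD and 45.7 ± 12.8 CPM in NODxPWK, a log2 difference of -0.30 ± 0.08. Btg2 (chromosome 1, 134075170 to 134079120) averaged 3.23 ± 1.16 CPM in PWKxNOD and 4.07 ± 1.7 CPM in NODxPWK, a log2 difference of -0.30 ± 0.13. The p53 targets Mdm2 and Ccng1 were near 0 at 0.02 ± 0.06 and 0.03 ± 0.06, and Sesn1 was at 0.07 ± 0.08 on the same log2 scale. Their group medians stayed between 17.7 and 21.2 CPM for Mdm2, 23 and 29.5 CPM for Ccng1, and 9.32 and 13.1 CPM for Sesn1. At an adjusted p of 0.05 in edgeR's quasi-likelihood fit the crosses were separated at 10.7% of all tested genes, 5.36% higher and 5.33% lower, and at 4 of the 9 genes. Nothing is read from that count, because the genes were chosen on this contrast.

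With age, Btg2 fell and Trp53inp1 rose, and the other 7 tested genes did not pass the threshold. Btg2 had 1.61 to 5.07 CPM (median 2.54 CPM) in the 24 older mice, against 1.81 to 7.24 CPM (median 4.27 CPM) in the 24 younger mice. The ranges overlapped, and the log2 difference was -0.66 ± 0.13 (adjusted p = 0.00029). The fall was seen on both diets, at -0.57 ± 0.18 on the high diet (adjusted p = 0.0461) and -0.74 ± 0.19 on the normal diet (adjusted p = 0.00888), 12 mice against 12 mice in each. The age by diet interaction was 0.17 ± 0.26 (adjusted p = 0.852). Btg2 was the 1 of 9 genes called on each diet, where 6.96% of all genes were called on the high diet and 6.28% on the normal diet. By cross and age, the Btg2 medians were 2.48 CPM in older and 3.46 CPM in younger PWKxNOD mice, and 2.80 CPM in older and 5.05 CPM in younger NODxPWK mice. Leaving out the 7 mice labelled 25 gave -0.57 ± 0.18 over both diets and -0.57 ± 0.31 on the normal diet alone, neither of them called. That fit keeps few older NODxPWK mice on the normal diet. Within a diet the call was lost without replicate 1, 2, 4 or 6 on the high diet (adjusted p up to 0.339) and without replicate 3 or 6 on the normal diet (up to 0.111).

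In older mice Trp53inp1 was at 44.8 ± 13.4 CPM, against 37.6 ± 7.13 CPM in younger ones (SD, n = 24), a log2 difference of 0.24 ± 0.08 (adjusted p = 0.0385). Its adjusted p was 0.0555 in the fit with a replicate block, where mice sharing lanes form a block. The call was also lost without replicate 1, 2, 4 or 6 (adjusted p up to 0.154), without the shallowest barcode (0.0717), without the mice with pancreas markers (0.0643) and with no low-count filter (0.0788). Without the mice labelled 25 Trp53inp1 was at 0.21 ± 0.10 and was not called either. The highest Trp53inp1 group was older NODxPWK on the normal diet, with 37.9, 59.1 and 76.3 CPM as lowest, median and highest. In older mice Sesn1 was at 10.3 ± 2.38 CPM, against 12.2 ± 2.43 CPM in younger ones, at -0.22 ± 0.08 (adjusted p = 0.0744). With the replicate block Sesn1 stood at -0.24 with an adjusted p of 0.0403. Among all tested genes 12% were past the threshold for age, 6.42% higher and 5.59% lower, against 1 and 1 of the 9 genes. Of the fixed markers of bile duct cells, both that were tested were higher with age, and the summed level of all 6 ran between 27.6 and 110 CPM in older mice, against 23.2 and 41.9 CPM in younger ones, with none at 0 in every mouse. Their part in the age differences was not tested.

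A difference in the age effect between the crosses was not shown for any of the genes. The age by cross interaction was 0.99 ± 0.36 for Gadd45a (adjusted p = 0.338), -1.31 ± 0.63 for Gadd45g (adjusted p = 0.532) and -0.38 ± 0.16 for Trp53inp1 (adjusted p = 0.433). Gadd45a was at 0.52 ± 0.49 without the mice labelled 25 and 0.63 ± 0.40 without replicate 4, and Gadd45g at -0.81 ± 0.66 without replicate 2 and -0.36 ± 0.68 without the 11 mice with pancreas markers. For Gadd45a the medians were 7.47 CPM in older and 6.38 CPM in younger PWKxNOD mice, and 2.78 CPM in older and 4.17 CPM in younger NODxPWK mice. edgeR called 0 of the 9 genes in this interaction, with 3 at an unadjusted p under 0.05, and 0.0501% of all tested genes. Of all 11979 tested genes, 1066 were at an unadjusted p under 0.05. DESeq2 called 0 of the 9.

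Between the diets, no growth arrest gene passed the threshold over all mice. Cdkn1a had 0 to 14.9 CPM (median 0.745 CPM) on the high diet, against 0.503 to 16.8 CPM (median 1.65 CPM) on the normal diet, a log2 difference of -0.88 ± 0.36 (adjusted p = 0.285). Gadd45a had 1.74 to 13.7 CPM (median 6.38 CPM) on the high diet, against 1.37 to 9.06 CPM (median 3.88 CPM) on the normal diet, at 0.58 ± 0.18 (adjusted p = 0.136), or 0.30 ± 0.25 without the mice labelled 25. Wee1 had 0.358 to 11.3 CPM (median 3.65 CPM) on the high diet, against 1.37 to 5.92 CPM (median 2.73 CPM) on the normal diet, at 0.38 ± 0.15 (adjusted p = 0.276). All 3 pairs of ranges overlapped. edgeR called 0 of the 9 genes, with 3 at an unadjusted p under 0.05, and 0.342% of all tested genes, and DESeq2 called 0 of the 9. An unadjusted p under 0.05 was reached by 1323 of all 11979 tested genes.

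Among older mice, where 3.71% of all tested genes were called for the diet, Cdkn1a had 0.406 to 6.96 CPM (median 0.565 CPM) on the high diet, against 0.503 to 16.8 CPM (median 3.78 CPM) on the normal diet. The log2 difference was -1.51 ± 0.50 (adjusted p = 0.0725) over 12 mice against 12 mice. edgeR thus called 0 of the 9 genes, with 1 at an unadjusted p under 0.05, as were 2006 of all 11979 tested genes. DESeq2 called Cdkn1a (adjusted p = 0.0182), as did the edgeR fit with each mouse's deviation in Dbp from its group mean as a covariate (-1.74 ± 0.44, adjusted p = 0.0121) and the fit without replicate 4 (-1.94 ± 0.51, adjusted p = 0.0172). That covariate holds no difference in Dbp between groups, so the value is not adjusted for such a difference. Cdkn1a was not called with the replicate block (adjusted p = 0.0544) or without the mice labelled 25 (-1.70 ± 0.66, adjusted p = 0.352). Without the 11 mice with pancreas markers it was not called either (-1.42 ± 0.66, adjusted p = 0.415). Of all genes, 16 of 12161 were called without the 11 mice. In younger mice the Cdkn1a difference was -0.25 ± 0.53 (adjusted p = 1; -0.66 to 0.13 without 1 replicate), where edgeR called 0 of the 9 genes, with 2 at an unadjusted p under 0.05, and 0% of all genes, and DESeq2 called 0 of the 9. The age by diet interaction of Cdkn1a was -1.26 ± 0.73 (adjusted p = 0.516; -0.71 ± 0.78 without replicate 1), so a difference between the ages was not shown. In that interaction edgeR called 0 of the 9 genes, with 2 at an unadjusted p under 0.05, and 0.618% of all genes, and DESeq2 called 0. Of all 11979 tested genes, 573 were at an unadjusted p under 0.05 for the diet in younger mice and 1434 for the interaction.

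**Figure D2:**
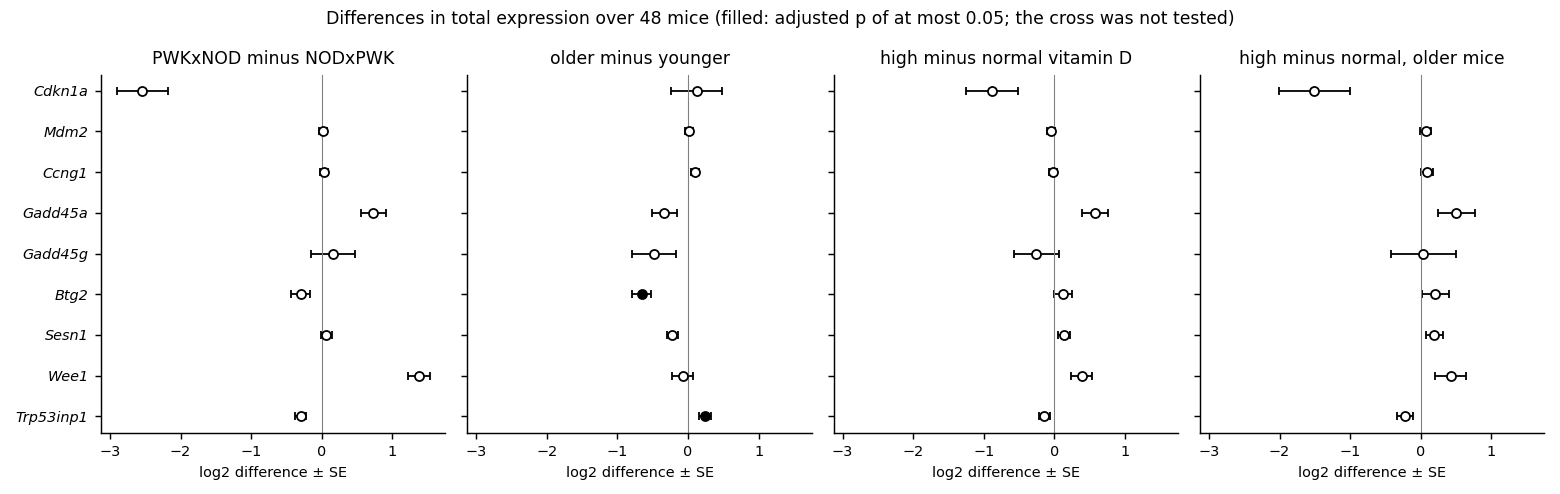
Log2 differences ± SE (horizontal axes) of the 9 tested genes (rows) between crosses, ages and diets over all 48 mice, and between diets in the 24 older mice. Filled points passed an adjusted p of 0.05 and are Btg2 and Trp53inp1 for age. The cross panel is a description whose points carry no mark of a call, and Cdkn1a at -2.54 and Wee1 at 1.38 lie farthest from 0 there.

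Of the 9 tested genes, Wee1 had the largest log2 difference between the crosses in its diet effect. In PWKxNOD it had 3.99 to 11.3 CPM (median 8.96 CPM) on the high diet, against 1.60 to 5.92 CPM (median 4.31 CPM) on the normal diet. In NODxPWK it had 0.358 to 3.31 CPM (median 1.91 CPM) on the high diet, against 1.37 to 3.23 CPM (median 2.45 CPM) on the normal diet. The diet by cross interaction was 1.27 ± 0.30 with an adjusted p of 0.0589, just short of the threshold, which 0.125% of all tested genes passed. edgeR called 0 of the 9 genes, with 2 at an unadjusted p under 0.05, and DESeq2 called 0 of the 9, with no adjusted p given for Wee1. Among all 11979 tested genes, 1668 had an unadjusted p under 0.05 in edgeR. Wee1 passed with the deviation in Dbp as a covariate (1.33 ± 0.26, adjusted p = 0.0151) and without replicate 2 (1.27 ± 0.28, adjusted p = 0.0315). It did not pass with the replicate block (1.29 ± 0.30, adjusted p = 0.0643) or without the mice labelled 25 (1.48 ± 0.44, adjusted p = 0.169). Without the 11 mice with pancreas markers it did not pass either (1.40 ± 0.31, adjusted p = 0.16). Trp53inp1 was at 0.45 ± 0.16 in the same interaction (adjusted p = 0.207).

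Arntl and Dbp, the clock genes that the growth arrest genes were set against, also differed between the crosses. Arntl had 0.907 to 12.8 CPM (median 3.05 CPM) in PWKxNOD, against 3.87 to 28.6 CPM (median 11.9 CPM) in NODxPWK, and Dbp had 32.5 to 137 CPM (median 88.0 CPM) in PWKxNOD, against 0.923 to 90.7 CPM (median 36.6 CPM) in NODxPWK. The log2 differences were -1.94 ± 0.20 for Arntl and 1.73 ± 0.23 for Dbp. Older NODxPWK mice on the normal diet stood lowest in Dbp, at 0.923 to 14 CPM, and highest in Arntl, at 13.1 to 28.6 CPM, and their Cdkn1a values were the highest of all groups by median. In edgeR's fit Dbp was also lower with age (-1.30 ± 0.23, adjusted p = 6.84e-05). Arntl was not called for age (0.25 ± 0.20, adjusted p = 0.495). Among older mice the diet difference was -1.16 ± 0.28 for Arntl (adjusted p = 0.0105) and 1.44 ± 0.35 for Dbp (adjusted p = 0.0112). All 7 mice labelled 25 were older mice on the normal diet, so the diet is mixed with the age label there. Without the 11 mice with pancreas markers, 16 of 12161 genes were called in this comparison, against 445 of 11979 over all mice. The time of day at which each mouse was killed was not stated in the labels. The clock state can therefore not be told apart from the cross, the age or, in older mice, the diet.

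Because the crosses partly separate, relations to the clock genes are given within each cross (n = 24 mice) and after removing the 8 group means (n = 48 mice), as descriptions with no p. Points share the library of the mouse and its depth. Cdkn1a was lower where Dbp was higher, at Pearson r = -0.586 and Spearman rho = -0.544 within PWKxNOD, and r = -0.569 and rho = -0.622 within NODxPWK. With group means removed r was -0.571 (rho = -0.578), and 0.342% of all tested genes had an r with Dbp of at least that size. It was -0.443 without the 2 mice farthest from the median of Dbp, and between -0.718 and -0.412 without 1 replicate. Against Arntl the r of Cdkn1a with group means removed was 0.519 (rho = 0.529), and 0.503 without the 2 mice farthest from the median of Arntl.

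Wee1 had the opposite signs. Its r with Arntl was -0.874 within PWKxNOD and -0.439 within NODxPWK, and -0.657 with group means removed (rho = -0.642), a size that 0.125% of all genes reached. Against Dbp it was 0.726 within PWKxNOD, 0.404 within NODxPWK and 0.528 with group means removed (rho = 0.619). Without the 2 mice farthest from the median it was -0.616 against Arntl and 0.524 against Dbp. Wee1 and Cdkn1a were the 2 of 9 genes with an r of at least 0.5 in size with either clock gene once group means were removed, where 0.835% of all genes had it with Dbp and 0.902% with Arntl. Nothing is read from that count, since the genes were chosen with this relation in view.

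**Figure D3:**
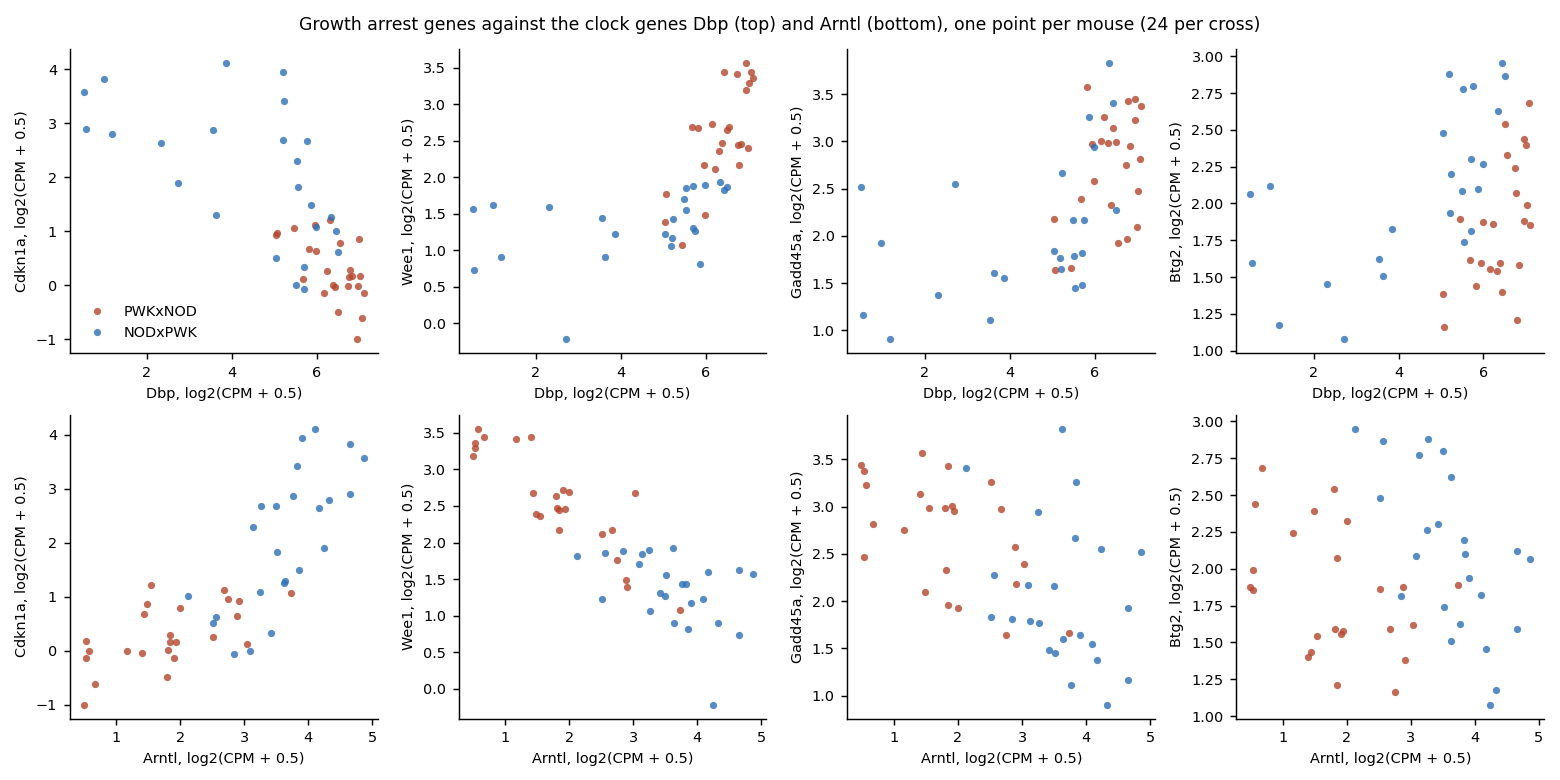
Cdkn1a, Wee1, Gadd45a and Btg2 (vertical axes) against Dbp (top) and Arntl (bottom) (horizontal axes), all as log2(CPM + 0.5), 1 point per mouse, with PWKxNOD in red and NODxPWK in blue. Cdkn1a runs down with Dbp and up with Arntl, and Wee1 runs the other way, within each colour as well as over both.

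Against Dbp, Gadd45a had r = 0.411 within PWKxNOD, 0.456 within NODxPWK and 0.173 with group means removed. Trp53inp1 had r = -0.384 within PWKxNOD, -0.525 within NODxPWK and -0.205 with group means removed. Btg2 had r = 0.563 within PWKxNOD, 0.635 within NODxPWK and 0.318 with group means removed. All 3 relations to Dbp were smaller within groups than within either cross. Against Arntl the r of Btg2 with group means removed was -0.445. With group means removed the r with Dbp was 0.004 for Mdm2, 0.104 for Ccng1, -0.141 for Sesn1 and -0.162 for Gadd45g. The genes also differed in how they moved with each other from mouse to mouse. Over 36 pairs of the 9 genes with group means removed, the median r was -0.02, and 2 pairs reached 0.5: Mdm2 with Trp53inp1 (r = 0.574) and Mdm2 with Ccng1 (r = 0.504). Cdkn1a and Wee1 had r = -0.474, and Btg2 and Wee1 had r = 0.481.

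Genes among the most like Cdkn1a over the 48 mice, of those with a mean of at least 2 CPM, were Nedd4l (r = 0.803), Arntl (0.798), Clpx (0.779) and Tab2 (0.765). With group means removed, Nid2 (0.621), Dtx4 (0.617), Lnx2 (0.606) and Fpgs (0.580) were among them, and Arntl was not.

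For age over both diets and for the diet in older mice, other genes of the p53 pathway passed the threshold about as often as all tested genes did. Of 33 listed p53 pathway genes 26 were tested, and for age 1 was higher (Btg1, 0.24 ± 0.08, adjusted p = 0.0302) and 2 were lower (Trp53inp2, -0.27 ± 0.08, adjusted p = 0.019, and Ercc5, -0.17 ± 0.06, adjusted p = 0.0478), where 12% of all tested genes were called. The median log2 difference of the 26 was -0.05 for age, against 0.00 for all genes. For the diet in older mice 1 of the 26 was called, Btg1, an antiproliferative relative of Btg2, at -0.49 ± 0.11 (adjusted p = 0.00431), where 3.71% of all genes were called, and the median was -0.06, against -0.01 for all genes. As above, the diet is mixed with the age label 25 in older mice. Between crosses the median was -0.04, against 0.00 for all genes, and Btg1 stood at -0.56 ± 0.08.

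Among 19 tested cyclins, kinases and inhibitors of 27 listed, 1 was higher with age, the transcription factor gene E2f1 (0.41 ± 0.14, adjusted p = 0.0462), where 6.42% of all tested genes were called higher. Of 12 tested proliferation genes of 25 listed, 1 was higher with age, Mcm2 of the replication helicase (0.50 ± 0.12, adjusted p = 0.00259), beside the same 6.42%, and the median was 0.01, against 0.00 for all genes. Ccng2, a cyclin related to Ccng1, was at -0.64 ± 0.11 between crosses, a description, and at -0.51 ± 0.16 for the diet in older mice (adjusted p = 0.0563). Of 12 tested immediate early and stress kinase genes, 3 fell with age: Jun (-0.46 ± 0.13, adjusted p = 0.0137), Junb (-0.71 ± 0.20, adjusted p = 0.0142) and Zfp36 (-0.33 ± 0.10, adjusted p = 0.0243), where 5.59% of all tested genes were called lower. The median of that list was -0.30 for age, against 0.00 for all genes, and Btg2, itself an immediate early gene, fell in the same comparison.

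Of 22 glucocorticoid and FOXO responsive genes, all tested, 7 were called lower with age, where 5.59% of all tested genes were, with a median of -0.16, against 0.00 for all genes. Igfbp1, an insulin-like growth factor binding protein of the liver, was at -1.03 ± 0.18 (adjusted p = 4.5e-05) and Fkbp5, a glucocorticoid target, at -0.88 ± 0.20 (adjusted p = 0.00185). For the diet in older mice 2 were called higher and 2 lower, where 3.71% of all genes were called, with Igfbp1 at -1.34 ± 0.27 (adjusted p = 0.00235) and Trib1 at 0.47 ± 0.11 (adjusted p = 0.00605). The diet is mixed with the age label 25 in that comparison too. Of 19 clock genes, 1 was called higher and 9 lower with age, where 6.42% of all genes were called higher and 5.59% lower. The median log2 difference of the clock genes was -0.36 for age and, as a description, 0.35 between crosses, against 0.00 for all genes in both.

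The split of each gene's counts between the PWK and the NOD allele was not used to choose the genes, which were chosen on their totals. Wee1 was given to the 2 alleles in exactly equal parts in all 48 mice, within 1e-06 counts, so the deposited values do not tell its alleles apart and its cross difference cannot be assigned to an allele. Of 9362 autosomal genes with a mean of at least 20 counts per mouse, 5% were split in that way in every mouse. Cdkn1a, Btg2 and Gadd45b were below that mean, which left 7 of the 10 genes in the allele test, Wee1 with nothing to test among them. The PWK share of Cdkn1a, pooled over mice, was 40.9% in PWKxNOD and 44.4% in NODxPWK, and single mice ranged up to 100%.

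Trp53inp1, Sesn1 and Mdm2 were lower from the PWK than from the NOD allele. Trp53inp1 had a PWK share of 17.1 to 60.9% (median 43.8%), with a log2 ratio of PWK over NOD of -0.36 ± 0.07 (adjusted p = 3.33e-05). Sesn1 had a PWK share of 12.6 to 73.3% (median 42.6%), at -0.37 ± 0.12 (adjusted p = 0.011). Mdm2 had a PWK share of 0.974 to 72.0% (median 42.7%), at -0.42 ± 0.15 (adjusted p = 0.0212). Each of the 3 ranges ran across an even split, and their medians lay below it. Sesn1 lost its call without replicate 1 (adjusted p = 0.0714), and Mdm2 without replicate 3 (adjusted p = 0.0517) or replicate 4 (adjusted p = 0.0619). The log2 ratio was 0.09 ± 0.07 for Ccng1 (adjusted p = 0.311), -0.24 ± 0.23 for Gadd45a (adjusted p = 0.478; -0.40 to -0.11 without 1 replicate) and -0.29 ± 0.27 for Gadd45g (adjusted p = 0.468; -0.57 to -0.08 without 1 replicate). Gadd45a was split in exactly equal parts in 18 of 48 mice, whose values do not tell its alleles apart. Of all 9362 genes 43.6% were called for the allele, 20.9% higher and 22.8% lower from PWK, against 3 of the 7 growth arrest genes.

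The spread of the PWK share between mice differed from gene to gene, as did the number of reads behind it. Its SD over mice was 27.3 percentage points for Gadd45g, 21.9 for Gadd45a, 14.1 for Mdm2, 12.9 for Sesn1, 8.65 for Ccng1 and 8.18 for Trp53inp1. The Gadd45a value includes 18 mice at an exactly even split. Sampling of reads at an even split and the median count would alone give an SD of 9.62 for Gadd45g and 10.4 for Gadd45a. It would give 4.95 for Mdm2, 6.51 for Sesn1, 4.37 for Ccng1 and 3.54 for Trp53inp1. In 8 mice Gadd45g was given at least 95% or at most 5% to 1 allele, and in 9 mice Cdkn1a was. All of the Cdkn1a extremes were PWKxNOD mice, which held the fewest Cdkn1a reads, while those of Gadd45g were mice of both crosses. The expected counts were already shared out between alleles by the submitters' software, so an extreme share is that estimate and not a count of reads.

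**Figure D4:**
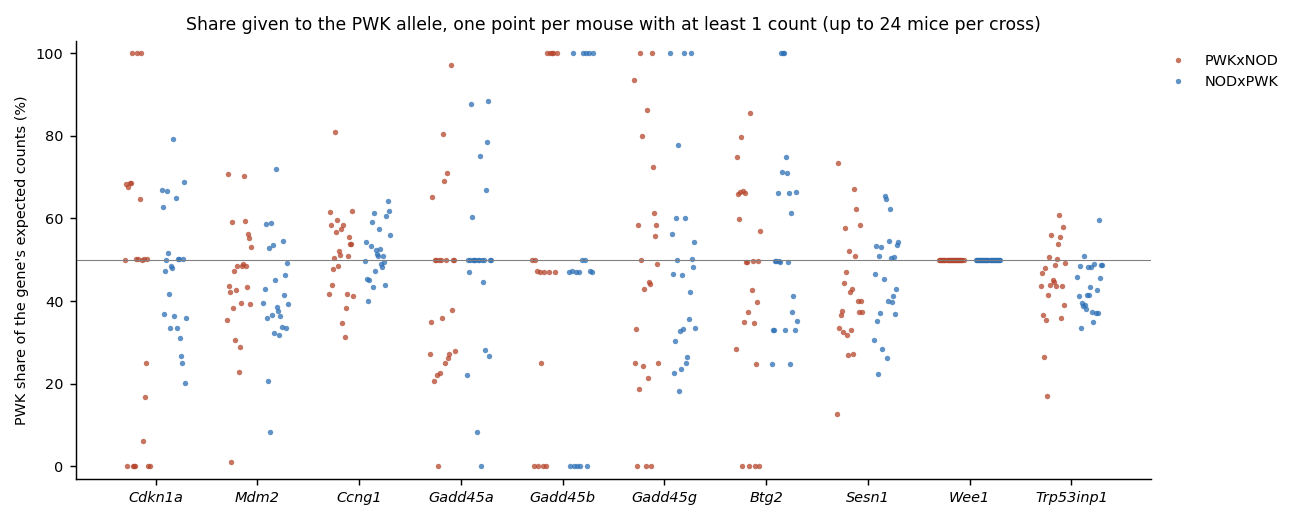
Share of each gene's expected counts given to the PWK allele (vertical axis, percent) in each mouse with at least 1 count, for the 10 genes (horizontal axis), with PWKxNOD in red left of NODxPWK in blue. Wee1 sits at 50% in every mouse, Trp53inp1 and Ccng1 are narrow, and Cdkn1a, Gadd45b, Gadd45g and Btg2 spread to 0 and 100%.

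No growth arrest gene passed the threshold for the parent an allele came from. The maternal over paternal log2 ratio was 0.09 ± 0.15 for Mdm2, -0.02 ± 0.07 for Ccng1, -0.20 ± 0.23 for Gadd45a, -0.01 ± 0.27 for Gadd45g, -0.09 ± 0.12 for Sesn1 and 0.04 ± 0.07 for Trp53inp1, each with an adjusted p of 1. edgeR called 0 of the 7 genes, with 0 at an unadjusted p under 0.05, limma on log2 ratios called 0, and 0.267% of all genes were called. The age effect on the allele ratio was called for 0 of the 7 genes by edgeR, with 0 at an unadjusted p under 0.05, for 0 by limma, and for 0.705% of all genes. Of all 9362 genes, 497 were at an unadjusted p under 0.05 for the parent of origin and 589 for age. The intervals are wide: the standard error of 0.27 for Gadd45g is about as large as its allele effect.

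Expected counts summed to 2025857 to 7480778 per mouse (median 5273518), and the 6 mice of 1 barcode held at most 3090625. Hepatocyte markers, 7 of 8 found and none at 0, summed to 58000 to 99800 CPM in PWKxNOD and 87300 to 119000 CPM in NODxPWK, so the labelled tissue carried its defining markers. Exocrine pancreas markers, 12 of 12 found and none at 0 in every mouse, summed to 20.1 to 1900 CPM in PWKxNOD and 16.2 to 270 CPM in NODxPWK, and 11 mice had over 50 CPM of them. Erythroid markers, 5 of 5 found, summed to 52.4 to 763 CPM in PWKxNOD and 201 to 880 CPM in NODxPWK. The median log2 difference between crosses was 3.87 over the 12 pancreas markers, -0.12 over 7 hepatocyte, -0.11 over 5 erythroid, -0.09 over 7 endothelial, -0.06 over 8 stellate and -0.05 over 8 Kupffer and immune markers, and -0.25 over the 2 tested bile duct markers. Of the 12 pancreas markers, 8 were at 0 in all younger NODxPWK mice on the normal diet, and 3 in those on the high diet. The 3.87 therefore does not describe their summed level, whose median was 31.5 CPM in PWKxNOD and 28 CPM in NODxPWK. The part of these cell type markers in the cross differences was not tested. With age, edgeR called 1 of 7 hepatocyte markers higher and 1 lower, 1 of 5 erythroid markers higher, 1 of 8 Kupffer and immune markers higher, and 1 of 7 endothelial markers higher and 2 lower, and no pancreas or stellate marker passed (medians 2.00 and 0.01). Without the 11 mice the Cdkn1a cross difference was -2.44 ± 0.45 and that of Wee1 1.34 ± 0.16. Over the same mice the age difference of Btg2 was -0.49 ± 0.15 (adjusted p = 0.043), while on the high diet alone it was -0.29 ± 0.21 (adjusted p = 0.535) and on the normal diet -0.68 ± 0.22 (adjusted p = 0.12).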

How the data were processed

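Liver RNA of 48 mice was read as single-end 68-base reads on 2 flowcells, with 1 table column per mouse. The authors deposited expected counts per gene for the NOD and the PWK allele, estimates that need not be whole. CASAVA 1.7.0, Bowtie 1.1.2 and the build GRCm38/mm10 are named, per the submitters' processing notes. The annotation and the way runs were joined are not stated in the sources. The genes, lists and tests were chosen with earlier results of these data known.

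Both alleles were summed and rounded to whole counts, and genes with low counts were removed by filterByExpr. Totals were tested with edgeR 4.0.16 (R 4.3.3; robust quasi-likelihood, TMM, 8 group means; biological coefficient of variation 16.6%), with Benjamini-Hochberg adjustment over 11979 genes and a threshold of 0.05. Errors of log2 differences are Wald standard errors. All tests are two-sided. The allele ratio was fitted with a term per mouse over 9362 autosomal genes with a mean of at least 20 counts. Correlations used log2(CPM + 0.5). P-values measure the spread between mice of a group.

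Named genes are the 10 genes, Arntl, Dbp, up to 4 genes of each list with the smallest p in a comparison and the 5 genes most like Cdkn1a, of which not all are reported here. The lists are p53 pathway, cyclins, kinases and inhibitors, proliferation, clock, immediate early and stress kinase, glucocorticoid and FOXO responsive, and markers of hepatocytes, bile duct, stellate, endothelial, Kupffer and immune, erythroid and exocrine pancreas cells. Genes without a symbol, 1317 of 38924, held 0.159% of counts. The promoters of Mdm2, Ccng1, Gadd45a and Gadd45g were added to that of Cdkn1a after the values were seen, and the proteins of the Gadd45 genes and the Wee1 promoter were not used here.

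Per the labels, 1 mouse of each group shares a lane set and so a replicate number. Same-numbered mice deviated together no more than others (mean r = -0.005 over 168 pairs, against 0.001, with 32 pairs above 0.1). Alternatives were DESeq2 1.42.0, other size factors, other filters, unrounded counts, the replicate block, each mouse's deviation in Dbp from its group mean as a covariate, limma 3.58.1 for allele ratios, leaving out each replicate, the mice labelled 25 or the shallowest barcode, and, chosen after seeing the data, leaving out 11 mice above 50 CPM of pancreas markers.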

Additional observations from a re-analysis of the deposited data

Results flagged for a closer look

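The 10 genes in each of the 8 groups made 80 sets of 6 values, and sets of the same group share their mice. In 4 of the 80 sets, 1 mouse stood apart from the others by Dixon's test, where chance gives about 1 in 20 sets. Among older PWKxNOD mice on the high diet the highest Cdkn1a value was 1.1 CPM with the nearest at 0.631 CPM, a gap of 0.679 of the group's range. In the same group the highest Gadd45b value was 1.22 CPM with the nearest at 0.368 CPM (0.698 of the range), and the highest Sesn1 value was 15.9 CPM with the nearest at 10.3 CPM (0.72 of the range). Cdkn1a had 1 to 6 counts per mouse in that group and Gadd45b 0 to 6, so those 2 gaps rest on few reads. Among younger PWKxNOD mice on the high diet the highest Gadd45g value was 35.3 CPM with the nearest at 5.92 CPM (0.866 of the range).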

How the results depend on the processing

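Of the 9 genes tested for totals, the number called for age was 2 and became 1 with no low-count filter, 0 without the mice labelled 25, 1 without the shallowest barcode and 1 without the 11 mice above 50 CPM of pancreas markers, and lay between 1 and 2 without 1 replicate. For the diet in older mice it was 0, and 1 with DESeq2 or with the deviation in Dbp as a covariate, and 0 to 1 without 1 replicate. For age on the normal diet it was 1, and 0 without the mice labelled 25 or the 11 mice, and 0 to 1 without 1 replicate. For age on the high diet it was 1, and 0 with no low-count filter, without the mice labelled 25 or without the 11 mice, and 0 to 1 without 1 replicate. For the diet by cross interaction it was 0, and 1 with that covariate, and 0 to 1 without 1 replicate. With the replicate block the number called was 2 for age, with Sesn1 (adjusted p = 0.0403) in place of Trp53inp1 (adjusted p = 0.0555), and the block changed no other call. Directions turned only for differences that had not passed the threshold. Without 1 replicate, Cdkn1a lay between -0.11 and 0.48 for age and between -0.66 and 0.13 for the diet in younger mice, Mdm2 between -0.09 and 0.01 and Ccng1 between -0.04 and 0.00 for the diet, and for the parent of origin Ccng1 lay between -0.06 and 0.02 and Gadd45g between -0.24 and 0.19. Without the 11 mice, Cdkn1a was -0.08 for age and 0.02 for the diet in younger mice, and Wee1 was 0.02 for age. Without the mice labelled 25, Gadd45a was -0.04 for the diet in older mice, and with a pseudocount of 5 in limma Gadd45g was 0.00 for the parent of origin. The cause of these changes was not tested. Depth kept Cdkn1a, Btg2 and Gadd45b out of the allele test.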
